A study of Mus musculus with 8 samples.

Results

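The epidermal differentiation complex is a cluster of genes on mouse chromosome 3 whose products build the hardened outer shell of squamous cells, and its genes were followed here in bulk RNA of 4 mouse models of endometrial cancer (EC). Members were taken by name from the raw count table: every symbol that starts with Sprr, Lce or S100a followed by a digit, plus Ivl, Lor, Flg2, Hrnr, Rptn, Tchh, Tchhl1, Crnn and Crct1. These were 60 of 24419 gene symbols, and Flg, which the rule also names, was not analysed here. All 60 lay between chr3:90511034-93564643 of GRCm38, the assembly also called mm10. They comprised 16 Sprr genes, 21 Lce genes (14 Lce1, 6 Lce3 and Lce6a), 3 other envelope precursors (Ivl, Lor and Crct1), 6 fused-type S100 genes and 14 S100a genes.

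In stratified squamous epithelium, cells leaving the basal layer replace their membrane with a cornified envelope of cross-linked proteins. Involucrin (Ivl), loricrin (Lor), the small proline-rich proteins (Sprr) and the late cornified envelope proteins (Lce) are the bricks of this envelope, and transglutaminases join them. The fused-type S100 proteins, such as repetin, trichohyalin and hornerin, carry an S100 domain ahead of long repeats and form a matrix between keratin filaments, whereas the S100a proteins are small calcium binders with roles far beyond squamous cells. A healthy uterine lining is a simple glandular epithelium, and squamous differentiation in it is a recognised feature of some endometrial tumors.

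The models were made by editing mouse endometrial organoids and transplanting them into the uterus of nude mice, which lack T cells but keep other host cells. All 4 models carried an sgRNA against Trp53 among their edits. TPM also overexpressed Myc from a retroviral construct, TPMCa (TPMPik3ca in the labels) added a Pik3ca E545K cDNA to the TPM edits, and TPMR1 (TPMPik3r1 in the labels) added an sgRNA against Pik3r1. TPK carried a different oncogene construct in place of Myc. The labels describe tumor organoids, whereas by the methods RNA came from the tumors themselves, roughly 2 months after the graft. The methods give the recipients as female BALB/cA-nu mice aged 8 weeks. There were 2 libraries per model, 8 in all. The 2 libraries of a model stand for 2 mice by the figure legends, so p-values measure the spread between few animals.

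The promoters of the envelope genes gave a view of the complex that did not depend on the counts. RefSeq windows of GRCm38.p6, from 250 bases before to 50 bases after each gene's start, were matched by symbol to 53 of the 60 members. Sprr2g, Sprr2j-ps, Lce1f, S100a14, S100a2, S100a10 and Crct1 were not matched. The AP-1 consensus TGACTCA was searched on both strands. The letters TATAAA, a core promoter box, were searched on the gene's own strand. The 250 upstream bases of 6 members are printed to show how the letters were laid out, 5′ to 3′ on the gene's strand, with matches to TGACTCA or its reverse complement TGAGTCA and to TATAAA in capitals. The first is the most abundant Sprr gene, the next a pair of Sprr2 genes with a shared layout, then involucrin and loricrin, and last an Lce3 gene without a match.
Sprr1a: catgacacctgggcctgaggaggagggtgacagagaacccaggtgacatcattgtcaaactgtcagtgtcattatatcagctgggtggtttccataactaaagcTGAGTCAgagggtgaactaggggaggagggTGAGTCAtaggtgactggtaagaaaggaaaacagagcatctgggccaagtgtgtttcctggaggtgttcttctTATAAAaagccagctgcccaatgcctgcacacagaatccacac
Sprr2d: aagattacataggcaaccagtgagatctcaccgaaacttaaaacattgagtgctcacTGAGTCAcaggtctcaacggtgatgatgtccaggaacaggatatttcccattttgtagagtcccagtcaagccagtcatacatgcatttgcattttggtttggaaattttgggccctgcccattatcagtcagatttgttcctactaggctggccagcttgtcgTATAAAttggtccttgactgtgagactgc
Sprr2f: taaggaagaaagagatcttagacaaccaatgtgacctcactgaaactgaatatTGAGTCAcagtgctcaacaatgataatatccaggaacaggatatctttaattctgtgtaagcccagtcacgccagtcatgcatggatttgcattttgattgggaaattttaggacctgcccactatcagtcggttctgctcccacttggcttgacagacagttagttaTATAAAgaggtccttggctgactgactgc
Ivl: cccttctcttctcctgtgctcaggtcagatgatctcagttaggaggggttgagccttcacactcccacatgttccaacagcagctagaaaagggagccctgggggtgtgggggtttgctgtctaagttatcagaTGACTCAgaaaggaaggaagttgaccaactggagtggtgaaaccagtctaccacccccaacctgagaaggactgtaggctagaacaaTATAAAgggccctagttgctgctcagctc
Lor: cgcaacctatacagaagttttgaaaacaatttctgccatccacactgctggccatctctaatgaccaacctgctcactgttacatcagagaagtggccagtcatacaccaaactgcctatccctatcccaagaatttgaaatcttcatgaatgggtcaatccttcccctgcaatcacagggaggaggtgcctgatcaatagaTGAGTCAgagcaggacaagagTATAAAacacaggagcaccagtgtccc
Lce3c: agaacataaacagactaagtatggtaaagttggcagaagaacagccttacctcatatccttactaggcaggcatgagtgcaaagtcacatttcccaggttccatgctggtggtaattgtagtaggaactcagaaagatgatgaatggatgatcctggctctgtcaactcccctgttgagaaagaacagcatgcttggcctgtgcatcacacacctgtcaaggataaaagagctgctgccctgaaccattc
They were read from chr3:92485882-92486131 (minus strand), chr3:92338890-92339139 (plus), chr3:92364937-92365186 (plus), chr3:92573736-92573985 (minus), chr3:92083143-92083392 (minus) and chr3:92944236-92944485 (plus), respectively.

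The AP-1 letters were found in 11 of 53 members (20.8%), against 5.95% of 27025 genes with such a window. They were in 8 of 14 Sprr genes, in both Lor and Ivl, in 1 of 11 S100a genes (S100a11) and in 0 of 20 Lce and 0 of 6 fused-type genes. TATAAA was found in 21 of 53 members (39.6%), against 9.77% of all genes, with 10 of 14 Sprr and 2 of 20 Lce genes among them. In 7 Sprr2 genes (Sprr2b, Sprr2d, Sprr2e, Sprr2f, Sprr2h, Sprr2i and Sprr2k) TATAAA began 29 bases before the start and an AP-1 match began between 193 and 198 bases before it. Their upstream windows were between 60.1 and 89.3% identical in pairs, with a median of 65.8% over 21 pairs, against 54.1% for Sprr2d and Lce3c by the same alignment, and matches in such related windows are not separate observations. Sprr1a had AP-1 letters 146 and 116 bases upstream, Ivl 116 and Lor 48. CACGTG (both strands, 5.66% of members and 8.09% of all genes) and GGAAGTG (both strands, 17.0 and 12.5%) were also searched. A match describes the letters in this window and is not shown to be a bound site.

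Total counts lay between 15748396 and 26943611 per library, so 3 counts, taken as the floor, corresponded to 0.116 to 0.198 CPM (counts relative to library size, scaled by the TMM method throughout). Of the engineered genes that can be described, Trp53 transcripts were present in every library (33.2 to 131 CPM), and Myc lay between 324 and 3075 CPM in the 6 libraries of TPM, TPMCa and TPMR1 and at 92.8 and 154 CPM in TPK. Pik3ca was at 89.9 and 83.3 CPM in TPMCa and between 60.9 and 80.1 CPM in the other 6 libraries, so the TPMCa libraries were highest by a narrow margin. Pik3r1 was at 51.3 and 101 CPM in TPMR1 and between 78.1 and 188 CPM elsewhere. A frameshift need not remove a transcript, so these levels do not check the sgRNA edits. The defining epithelial markers were scarce in TPMCa and TPMR1, which the study describes by histology as adenocarcinoma with glandular structures. Epcam was at 5.003 and 3.12 CPM in TPMCa and 0.813 and 0.389 CPM in TPMR1. It was at 313 and 392.1 CPM in TPM and 322 and 527 CPM in TPK. The 6 epithelial markers summed to 23.7 to 73.3 CPM in TPMCa, 6.47 to 27.4 in TPMR1, 2941 to 5498 in TPM and 3236 to 4963 in TPK, and all 6 passed the test as higher in TPM and in TPK than in the mean of TPMCa and TPMR1. Basal squamous markers ran the same way, with 5 of 5 higher in both comparisons (7.44 and 10.3% of all genes were called higher in TPM and TPK). Krt5, the keratin of basal squamous cells, was at 5720.4 and 1281 CPM in TPM, 7358 and 5506 CPM in TPK and at most 0.890 CPM in TPMCa and TPMR1. Fibroblast markers (875.9 to 16595 CPM in sum) and macrophage markers (314 to 4612 CPM) were present in all 8 libraries, and of 6 and 7 tested 0 were called in either comparison by edgeR (0 and 1 lower in TPM at an unadjusted p under 0.05, 0 and 1 by DESeq2, and 0 in TPK by both). Endothelial markers summed to 91.8 and 109 CPM in TPM, 50.2 and 141 in TPK and 146 to 599 in the other models, with 0 of 5 called and 4 lower at an unadjusted p under 0.05 and by DESeq2 in each comparison. In bulk RNA, fewer cells of a type and less RNA per cell cannot be told apart, and the part that epithelial content had in the results below was not tested.

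The complex separated the models by the envelope genes more than by the S100a genes. The 46 members outside the S100a group summed to 5411 and 983 CPM in TPM replicates 1 and 2 and to 4894 and 1941 CPM in TPK. In TPMCa they summed to 8.23 and 4.56 CPM and in TPMR1 to 2.83 and 5.34 CPM. Of these 46, 33 had 0 counts in all 4 TPMCa and TPMR1 libraries, 39 had 3 counts or fewer in each of them, and Sprr2a1 and Sprr2a2 had 0 counts in all 8 libraries. The 14 S100a genes together were present in every library, at 3237 and 1808 CPM in TPM, 2309 and 787 in TPMCa, 153 and 787 in TPMR1 and 4284 and 3599 in TPK. Without S100a8 and S100a9, the other 12 summed to 2880 and 1137 CPM in TPM and 3795 and 3156 in TPK. This was above the 625 and 591 CPM in TPMCa and the 144 and 437 CPM in TPMR1.

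**Figure D1:**
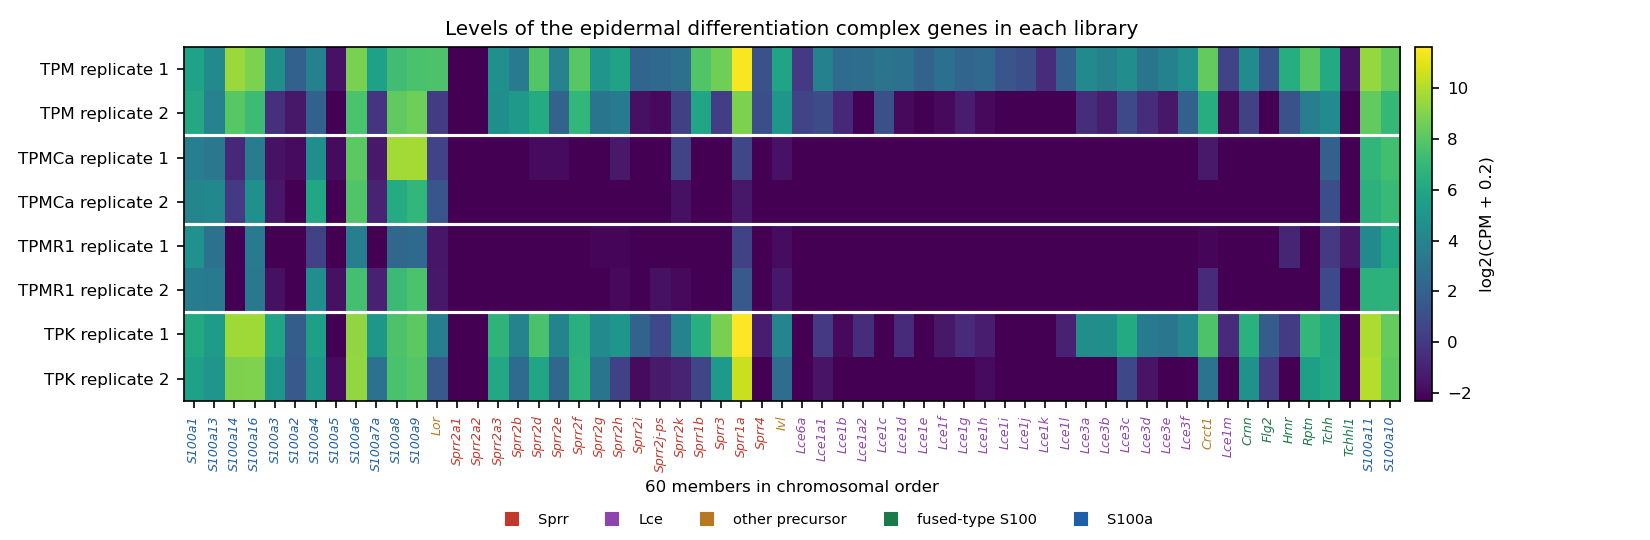
Level of each of the 60 members (columns, in chromosomal order, names colored by group) in each library (rows), as log2(CPM + 0.2). The Sprr, Lce and fused-type columns are mostly dark in the 4 TPMCa and TPMR1 libraries, where 39 of 46 members outside the S100a group had 3 counts or fewer in each. Replicate 1 is brighter than replicate 2 for the Lce genes of TPM other than Lce6a, and for those Lce genes with counts in TPK.

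TPM and TPK are called the squamous models here, after the squamous features that the study reports in their histology. Each was set against the mean of TPMCa and TPMR1, the contrast the study used for its added PI3K pathway mutations and for TPK. The low-count filter kept 44 of the 60 members. A member high in 1 model alone could pass it, so counts over these 44 are read only against all genes tested. In TPM, 24 of 44 members were higher and 0 lower at an adjusted p under 0.05 (7.44% of 15875 genes were called higher and 1.45% lower). In TPK, 23 of 44 were higher and 0 lower (10.3 and 4.06% of all genes). The libraries of the 2 sides did not overlap for 34 members in TPM and 32 in TPK, all higher, and for 0 lower (19.4 and 22.4% of all genes higher, 15.5 and 18.5% lower). The median log2 fold change over the 44 members was 9.08 in TPM and 8.05 in TPK, against -0.02 and 0.00 over all genes. With the members at the floor in one group set to their lower bounds, the medians were 5.74 and 5.60. At an unadjusted p under 0.05, 39 members in TPM and 37 in TPK were higher and 0 lower (15.7 and 18.7% of all genes higher, 9.28 and 13.3% lower), and with a log2 fold change beyond 1 required too, as in the methods of the study, the counts were the same (13.5 and 15.5% higher, 6.54 and 9.71% lower). DESeq2 called 39 and 33 members higher and 0 lower (11.6 and 14.6% of 16804 genes with an adjusted p higher, 6.84 and 12% lower). Both comparisons share the TPMCa and TPMR1 libraries and are not independent.

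The size of these counts depended on single libraries, and the share of all genes called moved too. In TPM the count fell from 24 to 11 without TPM replicate 1, TPMCa replicate 1 or TPMCa replicate 2, where 2.66, 3.62 and 4.14% of all genes were called higher. It was 14 and 15 without TPK replicates 1 and 2 (4.63 and 4.54% of all genes). In TPK it fell from 23 to 11 without TPK replicate 1, to 14 without TPK replicate 2 and to 11 and 12 without TPMCa replicates 1 and 2 (4.59, 3.08, 5.23 and 6.56% of all genes in that order). With replicate 1 of both TPM and TPK left out, 2 members were called in TPM and 8 in TPK (0.733 and 1.78% of all genes).

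Among the Sprr genes, 10 of 14 tested were higher in TPM and 9 of 14 in TPK (7.44 and 10.3% of all genes). Sprr1a, an early envelope precursor also induced by stress and injury, was the most abundant. It was at 2932 and 470.1 CPM in TPM, 1.39 and 0.167 in TPMCa, 1.16 and 2.78 in TPMR1 and 3179.7 and 1479 in TPK. The TPM and TPK libraries were all far above the other 4, and the 2 squamous models overlapped each other. The log2 fold change was 10.43 (SE 1.13, adjusted p = 0.00377) in TPM and 10.88 (SE 1.15, adjusted p = 0.00292) in TPK. Per kilobase of exon, Sprr1a had the highest mean of all members in TPM (2110.4 CPM per kb) and TPK (2890.0 CPM per kb), ahead of S100a11 (979 and 2023 CPM per kb). This order did not hold in replicate 2. In TPM replicate 2, S100a9 (710 CPM per kb) and S100a11 (609) were above Sprr1a (583). In TPK replicate 2, S100a11 (2128) was above Sprr1a (1835).

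The Sprr2 genes, a tandem family of small envelope proteins, differed in replicate spread. Of the 12, 11 had 3 counts or fewer in each TPMCa and TPMR1 library, 2 of them with 0 counts in all 8 libraries. Sprr2k was the exception, at 1.27 and 0.111 CPM in TPMCa, against 6.80 and 1.03 in TPM and 14.5 and 0.330 in TPK. Sprr2f, a family member known for its induction by estrogen in the mouse uterus, was at 256 and 122 CPM in TPM and 91.8 and 105 in TPK, with 0 counts in the other 4 libraries. It was at least 1181-fold higher in TPM (adjusted p = 0.00120) and at least 616-fold higher in TPK (adjusted p = 0.00120) than the floor of 3 counts per library. Sprr2d was at 239 and 75.6 CPM in TPM and 199.6 and 59.0 in TPK, with 1 of the other 4 libraries above 0 (0.0633 CPM in TPMCa replicate 1). It was at least 984-fold and 808-fold higher (adjusted p = 0.00276 and 0.00264). Sprr2a3 stood at 25.8 and 24.2 CPM in TPM and 106 and 69.5 CPM in TPK, with 0 counts elsewhere, so its TPM and TPK libraries did not overlap. Because 36.2% of its 100-base windows also occur in Sprr2a1 or Sprr2a2, both listed at 0, reads of these near-identical copies cannot be assigned to it with certainty. Sprr2b reached 11.2 and 37.9 CPM in TPM and 14.9 and 5.60 CPM in TPK, and was the only one of 12 Sprr genes with over 3 counts in both TPM libraries that was higher in replicate 2.

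Sprr3, abundant in oral and esophageal epithelium, was the most uneven between the TPM libraries of the Sprr genes with over 3 counts in both. In TPK that was Sprr1b, at 65.1-fold. Sprr3 was at 389 and 0.972 CPM in TPM and at 432 and 36.1 CPM in TPK, with 0 counts in TPMCa and TPMR1. Its TPM replicates differed by 400.4-fold, and its adjusted p was 0.0747 in TPM and 0.0544 in TPK despite bounds of at least 1220.2-fold and 1464-fold. Sprr1b was at 233 and 61.7 CPM in TPM and 85.8 and 1.32 in TPK, and was called in both (adjusted p = 0.0387 and 0.0391). Sprr2h was at 52.3 and 10.7 CPM in TPM and 32.6 and 1.12 in TPK (adjusted p = 0.0201 and 0.0211), with 3 counts or fewer in each TPMCa and TPMR1 library. The calls of Sprr1a, Sprr2f, Sprr2d, Sprr2a3 and Sprr2b held in both comparisons whichever of the 8 libraries was left out. Sprr1b lost its call in TPM without either TPM, either TPMCa or the first TPMR1 library (adjusted p up to 0.142) and in TPK without any of 6 libraries, both TPM, both TPMCa, TPMR1 replicate 1 and TPK replicate 1 (up to 0.106). Sprr2h lost it without either TPMCa library or replicate 1 of the model tested (up to 0.107 in TPM and 0.150 in TPK).

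The other precursors were higher in TPM for 3 of 3 and in TPK for 2 of 3 (7.44 and 10.3% of all genes). Involucrin (Ivl), an early scaffold of the envelope, was at 57.7 and 33.2 CPM in TPM, 15.9 and 6.20 CPM in TPK and at most 0.167 CPM in TPMCa and TPMR1. All TPM libraries lay above all TPK libraries, and these above the rest. Ivl was at least 284-fold higher in TPM (adjusted p = 0.00207) and at least 69.0-fold higher in TPK (adjusted p = 0.00360), and both calls held without any one library. Crct1 was at 316 and 81.3 CPM in TPM, 213 and 7.78 in TPK and at most 0.445 elsewhere (log2 fold change 10.39, SE 1.63, adjusted p = 0.0123 in TPM, and 9.54, SE 1.59, adjusted p = 0.0127 in TPK). Its call was lost without either TPMCa library or replicate 1 of the model tested (adjusted p up to 0.0728 in TPM and 0.0642 in TPK).

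Loricrin (Lor), the major late precursor of the granular layer, rested on 1 library. It was at 211 CPM in TPM replicate 1 and 0.858 CPM in TPM replicate 2, the latter below both TPMCa libraries (1.20 and 2.45 CPM). TPMR1 had 0.155 and 0.167 CPM and TPK 12.7 and 2.77 CPM. The fitted log2 fold change in TPM was 7.58 (SE 1.73, adjusted p = 0.0441), and without TPM replicate 1 it was 0.62 (adjusted p = 0.852). Its call was also lost without any of the TPMCa, TPMR1 or TPK libraries taken singly. In TPK its log2 fold change was 3.81 (SE 1.59, adjusted p = 0.156).

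The Lce genes, which encode envelope proteins added late, were the group most fully silent in TPMCa and TPMR1, where all 21 had 0 counts in all 4 libraries. They summed to 177 and 12.3 CPM in TPM and to 163 and 1.78 CPM in TPK. Only 9 of 21 passed the low-count filter, of which 2 were called in TPM (Lce1a1 and Lce1c) and 1 in TPK (Lce3c), against 7.44 and 10.3% of all genes. Lce1a1 was at 14.1 and 1.60 CPM in TPM and 0.8001 and 0.132 CPM in TPK (at least 49.0-fold higher in TPM, adjusted p = 0.0342). Lce1c was at 8.13 and 1.94 CPM in TPM with 0 counts in TPK (at least 31.5-fold higher in TPM, adjusted p = 0.0395). Lce3c was at 22.8 and 1.49 CPM in TPM and 74.1 and 1.45 CPM in TPK (adjusted p = 0.0835 and 0.0462, bounds of at least 75.8-fold and 236-fold). These 3 calls were the least firm: those of Lce1a1 and Lce1c were lost without any one of the TPM, TPMCa or TPK libraries (adjusted p up to 0.187 and 0.249), and that of Lce3c without any single library (up to 0.156). Between 24.1 and 43.0% of the 100-base windows of Lce3c, Lce3d, Lce3e and Lce3f recur in another Lce3 gene, so their separate levels are uncertain while their sum is less so.

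The mix of Lce genes differed between the squamous models, a split that was chosen after the values were seen and is given as a description. Of the counts on Lce1 and Lce3 genes, Lce1 held 40.3% in TPM replicate 1 (1177 against 1744 counts, exact 95% binomial interval 38.5 to 42.1%) and 39.9% in TPM replicate 2 (77 against 116 counts, 32.9 to 47.2%). In TPK it held 2.11% in replicate 1 (60 against 2790 counts, 1.61 to 2.70%) and 11.1% in replicate 2 (3 against 24 counts, 2.35 to 29.2%). Each TPM share lay within the interval of TPM replicate 2 although the summed Lce level differed more than 10-fold between these libraries, and both TPK intervals lay below both TPM intervals. These intervals cover counting error only, and TPK replicate 2 had only 27 such counts.

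**Figure D2:**
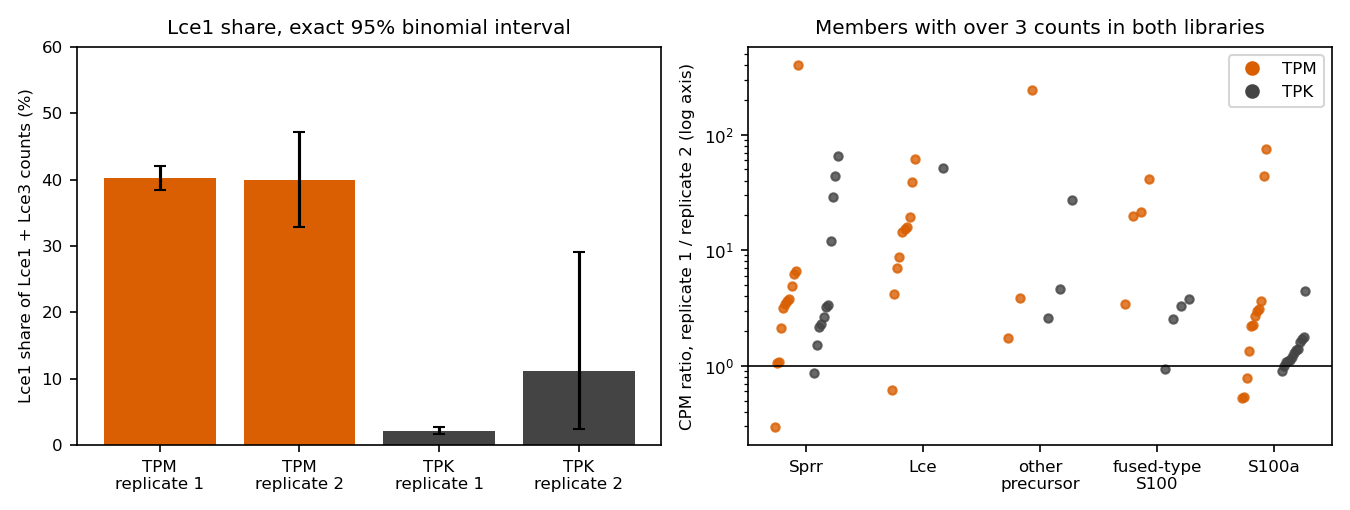
Left, Lce1 share of Lce1 and Lce3 counts in each TPM and TPK library, with the exact 95% binomial interval: 40.3 and 39.9% in TPM, 2.11 and 11.1% in TPK. Right, CPM ratio of replicate 1 to replicate 2 on a log axis for each member with over 3 counts in both libraries, by group; most points lie above 1, and TPK S100a genes lie closest to it.

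The fused-type S100 genes were higher in 3 of 5 tested in each squamous model (7.44% of all genes in TPM and 10.3% in TPK). The same 3 genes were called in both. Repetin (Rptn) was at 267 and 12.5 CPM in TPM and 123 and 48.0 CPM in TPK, with 0 counts in the other 4 libraries (at least 874-fold and 534-fold higher, adjusted p = 0.0217 and 0.0197). Trichohyalin (Tchh), best known from the inner root sheath of the hair follicle, was at 73.9 and 21.5 CPM in TPM, 70.2 and 74.2 in TPK, 3.74 and 1.84 in TPMCa and 0.813 and 1.56 in TPMR1. Its log2 fold change was 4.72 (SE 0.57, adjusted p = 0.00531) in TPM and 5.32 (SE 0.58, adjusted p = 0.00322) in TPK, and both calls held without any one library. Cornulin (Crnn), a gene of esophageal and other stratified squamous epithelium, was at 21.4 and 1.09 CPM in TPM and 94.8 and 28.8 CPM in TPK with 0 counts elsewhere (at least 70.4-fold and 386-fold higher, adjusted p = 0.0412 and 0.0193). In TPM, Rptn lost its call without either TPMCa or either TPK library (adjusted p up to 0.0756) and Crnn without TPM replicate 1, TPMR1 replicate 1 or any TPMCa or TPK library (up to 0.111). In TPK both lost it without either TPMCa or either TPK library (up to 0.0851 and 0.0803).

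Hornerin (Hrnr), a filaggrin-like protein of the late granular layer, came mainly from 1 library. It was at 82.8 and 2.002 CPM in TPM, 0.857 and 0 CPM in TPK, 0 in both TPMCa libraries and 0.348 and 0 CPM in TPMR1. It missed the threshold in TPM (log2 fold change 10.18, SE 2.30, adjusted p = 0.0527). Flg2 was low everywhere, at 2.11 and 0 CPM in TPM and 3.26 and 0.857 CPM in TPK, with adjusted p = 0.148 and 0.0834. Tchhl1 did not reach 1 CPM in any library.

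**Figure D3:**
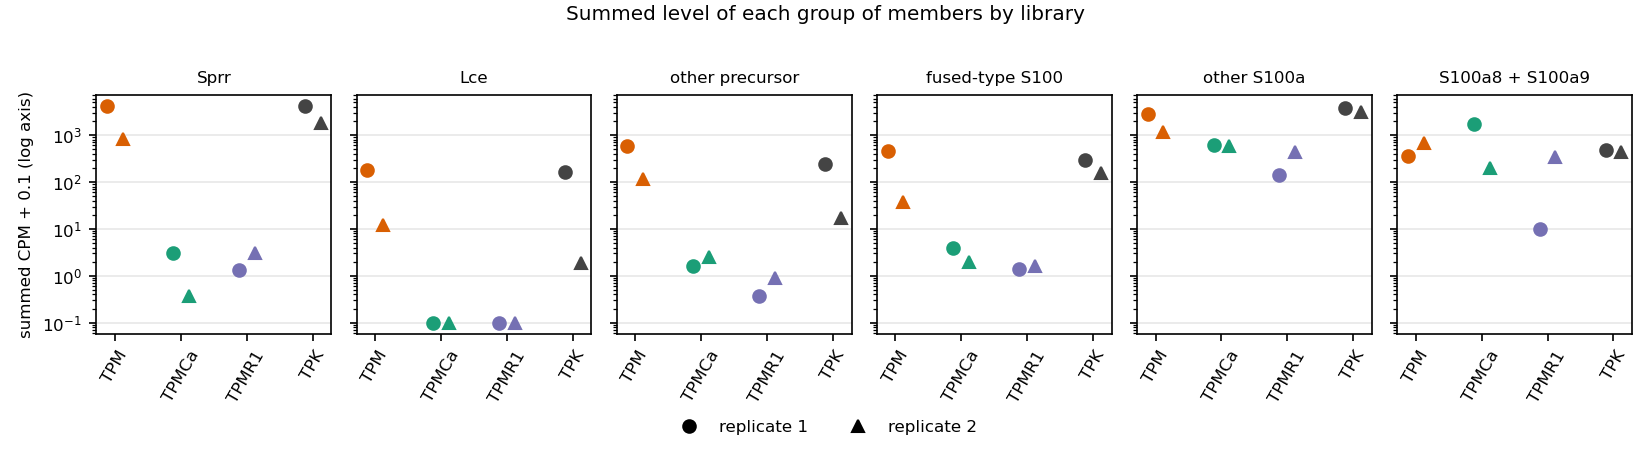
Summed CPM + 0.1 of each group of members in each library on a log axis, with circles for replicate 1 and triangles for replicate 2. In every panel but the last the TPM and TPK libraries lie above all TPMCa and TPMR1 libraries. In the last panel (S100a8 + S100a9) the models overlap, from 9.83 to 1684 CPM.

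The S100a genes split into members that followed the envelope genes and members that did not. In TPM 6 of 13 tested were higher (S100a14, S100a16, S100a11, S100a1, S100a3 and S100a7a) and in TPK 8 of 13, the same 6 with S100a2 and S100a13 (7.44 and 10.3% of all genes). S100a14, a protein of epithelial cells, was at 752 and 253 CPM in TPM and 800.2 and 466 CPM in TPK. It was at 0.380 and 0.779 CPM in TPMCa and at 0 counts in both TPMR1 libraries. The log2 fold change was 12.94 (SE 0.80, adjusted p = 0.00120) in TPM and 13.27 (SE 0.80, adjusted p = 0.00107) in TPK. S100a16, its neighbor on the chromosome, was at 472 and 153 CPM in TPM, 796 and 497 in TPK, 11.8 and 25.7 in TPMCa and 11.1 and 9.34 in TPMR1 (log2 fold change 4.49, SE 0.52, adjusted p = 0.00474 in TPM, and 5.54, SE 0.54, adjusted p = 0.00232 in TPK). The calls of S100a14 and S100a16 held in both comparisons whichever library was left out.

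S100a11, a partner of annexin A1 in the envelope and other membranes, was expressed in every model. It was at 689.6 and 311 CPM in TPM, 979.8 and 1088 in TPK, 118 and 99.7 in TPMCa and 20.0 and 101 in TPMR1. All libraries of the squamous models exceeded all others (log2 fold change 2.62, SE 0.60, adjusted p = 0.0459 in TPM, and 3.67, SE 0.62, adjusted p = 0.0129 in TPK). S100a1 showed the same order at smaller size, at 53.5 and 68.1 CPM in TPM, 71.3 and 51.0 in TPK and 12.01 to 26.6 in the other 4 libraries (log2 fold change 1.87 in TPM, adjusted p = 0.0249, and 1.88 in TPK, adjusted p = 0.0195). Both genes lost their call in TPM without any one TPM, TPMCa or TPK library (adjusted p up to 0.317 for S100a11 and 0.162 for S100a1), and in TPK without any one TPMCa or TPK library (up to 0.0789 and 0.126). For S100a11, 33.98% of its 100-base windows recur in the gene models Gm12854 and Gm7665. S100a3, S100a7a and S100a2 were each under 0.4 CPM in all 4 TPMCa and TPMR1 libraries and reached 56.8, 51.4 and 3.85 CPM at most. S100a2 lies inside the span of S100a3, but 0% of its 100-base windows recur in another gene.

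S100a10, the partner of annexin A2, and S100a6, known as calcyclin, did not pass the test in either comparison. S100a10 was at 341 and 127 CPM in TPM, 321 and 293 in TPK, 167 and 138 in TPMCa and 64.6 and 105 in TPMR1, with log2 fold changes of 1.04 (SE 0.40, adjusted p = 0.174) and 1.44 (SE 0.40, adjusted p = 0.0597). S100a6 was at 459 and 206 CPM in TPM, 647 and 654 in TPK, 281 and 228 in TPMCa and 13.05 and 176 in TPMR1 (1.10, SE 0.84, adjusted p = 0.459, and 2.07, SE 0.83, adjusted p = 0.142). S100a4, a marker of fibroblasts and macrophages rather than of squamous cells, was the only member with a fold change below 0 in TPM. It was at 13.7 and 3.78 CPM in TPM, 47.3 and 34.5 in TPK, 24.6 and 64.3 in TPMCa and 1.08 and 22.9 in TPMR1. Its log2 fold change in TPM was -1.40 (SE 1.14, adjusted p = 0.490). Of its 100-base windows, 41.9% recur in the overlapping gene model Gm42674. S100a5 stayed below 0.2 CPM in every library.

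S100a8 and S100a9 encode the subunits of calprotectin, which is abundant in neutrophils and induced in stressed keratinocytes. S100a8 was at 163 and 301 CPM in TPM, 825 and 76.0 in TPMCa, 4.65 and 145 in TPMR1 and 212 and 195 in TPK. S100a9 was at 194 and 371, 859 and 120.3, 5.19 and 205, and 277 and 248 CPM in the same order. All models overlapped, and TPMCa replicate 1 was highest and TPMR1 replicate 1 lowest for both genes. Neither differed by the test (log2 fold change 0.34 and 0.32 in TPM, adjusted p = 0.895 and 0.901, and 0.15 and 0.21 in TPK, adjusted p = 0.949 and 0.926). The ratio of S100a8 to S100a9 stayed between 0.632 and 0.961.

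Neutrophil markers were set beside this pair. Of 12 markers listed, 11 were analysed and Ly6g was not analysed here. Their sum was 2458 and 1643 CPM in TPM, 1086 and 138 in TPMCa, 8.98 and 220 in TPMR1 and 8740.0 and 7138 in TPK, most of it in TPM and TPK from Ltf (lactoferrin), which uterine epithelium also makes and which was called higher in both comparisons. This sum was highest in TPK, unlike S100a8 and S100a9. Without Ltf, a choice made after the values were seen, the other 10 markers summed to 180.1 and 254 CPM in TPM, 1027 and 133 in TPMCa, 8.48 and 215 in TPMR1 and 284 and 312 in TPK. The highest and lowest libraries of this smaller sum were those of S100a8 and S100a9, and the pair's summed CPM was between 1.16 and 2.64 times that of the 10 markers in every library. Csf3r, the receptor that drives neutrophil production and the most abundant of the 10 in 7 of 8 libraries, had log2 fold changes of 0.25 (SE 1.19, adjusted p = 0.922) in TPM and 0.79 (SE 1.17, adjusted p = 0.685) in TPK. DESeq2 also called Elane and Mpo, granule enzymes of early neutrophils, higher in TPK, where replicate 1 held most of their counts (94 and 178, against 5 and 2). At 0 counts was only Elane in TPMR1 replicate 1. The part of neutrophils in the levels of S100a8 and S100a9 was not tested.

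**Figure D4:**
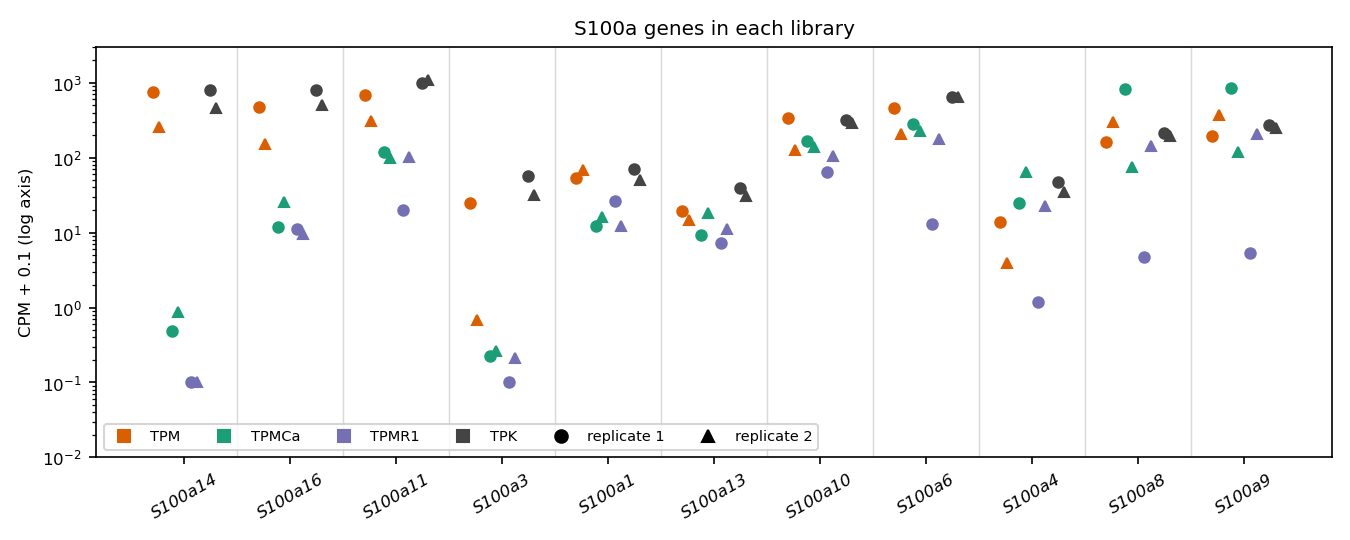
CPM + 0.1 on a log axis of 11 S100a genes in each library, colored by model, with circles for replicate 1 and triangles for replicate 2. S100a14 separates TPM and TPK (253 to 800.2 CPM) from TPMCa and TPMR1 (at most 0.779 CPM), whereas S100a8 and S100a9 overlap across models, with TPMCa replicate 1 highest and TPMR1 replicate 1 lowest.

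The replicates of the squamous models were far apart for the complex. Of 55 members that reached 1 CPM in a TPM library, 32 differed by over 4-fold between the 2 TPM libraries, all higher in replicate 1, against 4.79% of 14639 genes. In TPK 15 of 39 did (all higher in replicate 1), against 5.66% of 14395 genes. The Lce genes led, with 18 of 20 in TPM and 6 of 6 in TPK, whereas 3 of 13 S100a genes in TPM and 1 of 13 in TPK were so far apart. Krt10, the keratin of suprabasal cells, was likewise at 2942 and 27.7 CPM in TPM and 334 and 108 CPM in TPK. Epcam differed less (313 and 392.1, 322 and 527 CPM), but the epithelial markers were not level between replicates. The 6 together summed to 5498 and 2941 CPM in TPM and 3236 and 4963 CPM in TPK. Krt7 was at 1991 and 567 CPM in TPM, and Krt8 at 94.3 and 515 CPM in TPK. In TPMR1, 5 of 11 members differed over 4-fold, all higher in replicate 2 and all of them S100a genes, against 17.7% of all genes, and in TPMCa 4 of 13 did, all higher in replicate 1, against 8.04%.

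TPK was compared with TPM directly, since both express the complex. By edgeR 0 of 44 members and 0 of 15875 genes (0%) were called. At an unadjusted p under 0.05, 1 member was higher and 6 were lower in TPK (3.37 and 3.8% of all genes), the same 7 members passed with a log2 fold change beyond 1 as well (2.32 and 2.95%), and DESeq2 called 1 member higher and 0 lower at an adjusted p under 0.05 (0.601 and 0.966% of genes). The median log2 fold change was -0.05 over the members and 0.01 over all genes. The higher member by both tools was Sprr2a3 (log2 fold change 1.81, SE 0.37, unadjusted p = 0.00549, adjusted p = 0.653 by edgeR and 0.0147 by DESeq2). The 6 lower were Lce1c, Lce6a, Hrnr, Lce1a1, Sprr4 and Ivl. Ivl had a log2 fold change of -2.04 (SE 0.78, adjusted p = 0.683), and Hrnr one of -6.58 (SE 2.46, adjusted p = 0.689). Lce1c and Lce6a, with 0 counts in both TPK libraries, were at least 27.3-fold and 5.53-fold lower there.

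Libraries of TPK and TPM did not overlap for 15 of 44 members, 8 higher and 7 lower in TPK. Both shares were below those of all genes (24.4 and 23.5%), so these members are named only as a list. Of the 8 higher, 6 were S100a genes (S100a11, S100a13, S100a16, S100a3, S100a4 and S100a6), and Sprr2a3 and Crnn were the others. Crnn had a log2 fold change of 2.46 (SE 1.44, adjusted p = 0.760). The S100a median was 0.60 and the Lce median -0.70, each within a wide spread of single genes. For Sprr1a the difference was 0.45 (SE 1.04), for Sprr3 0.26 (SE 2.25) and for S100a14 0.33 (SE 0.61). Errors of this size leave differences of several-fold in either direction undetectable for most members, so the absence of calls does not show equal levels.

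**Figure D5:**
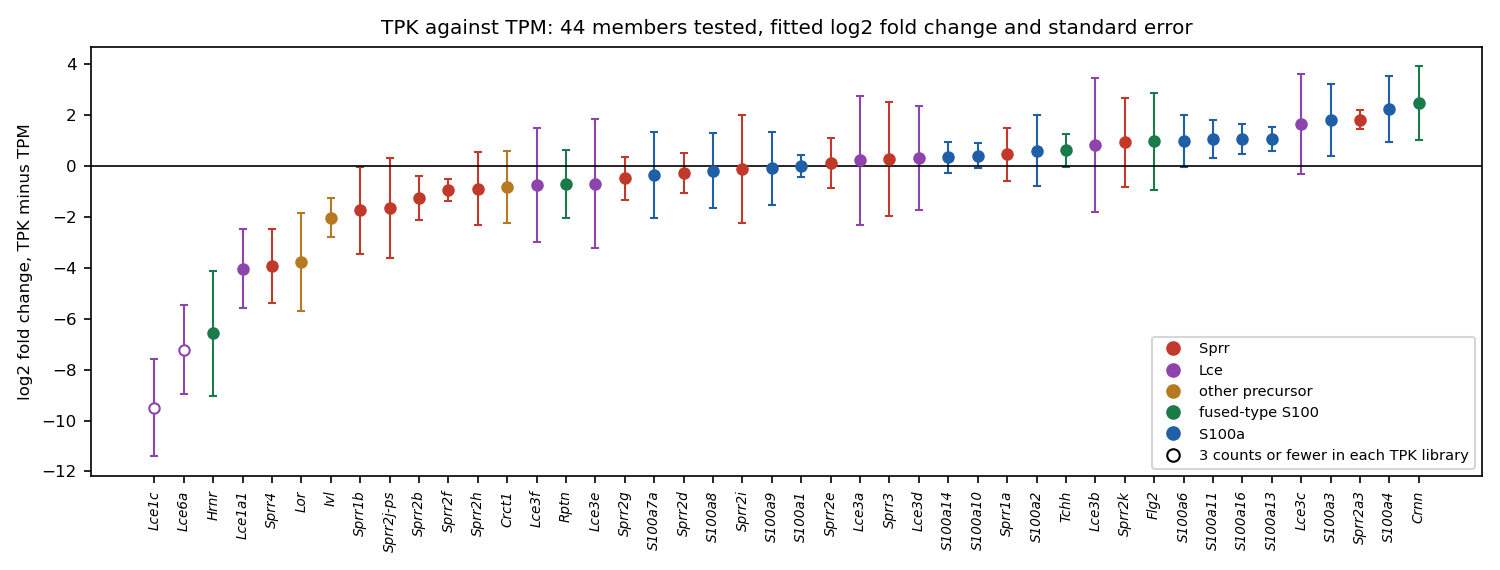
Fitted log2 fold change of TPK minus TPM (points) with its standard error (bars) for the 44 members tested, in order of size and colored by group. Open points mark Lce1c and Lce6a, which had 0 counts in both TPK libraries, so that their fitted values depend on the fit and are not bounds. No member passed an adjusted p under 0.05, and most bars cross or approach 0.

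TPMR1 and TPMCa, the models with added PI3K pathway changes, were compared in the same way, and 0 of 44 members and 0 of 15875 genes (0%) were called by edgeR. At an unadjusted p under 0.05 there was 1 member (5.49% of all genes higher and 6.27% lower, and 4.64 and 5.88% with a log2 fold change beyond 1), S100a14, which DESeq2 called lower too (adjusted p = 0.00841, with 2.09% of genes called higher and 2.94% lower). With 0 counts in TPMR1 against 0.380 and 0.779 CPM in TPMCa, S100a14 was at least 4.10-fold lower in TPMR1 (adjusted p = 0.364 by edgeR). Epcam moved the same way between these models, by the levels given above (log2 fold change -2.71, SE 0.48, adjusted p = 0.364), and its part in the result was not tested. Libraries did not overlap for 9 members, all lower in TPMR1 (17.7% of all genes lower and 18.8% higher), 6 of them S100a genes, with Lor, Tchh and Sprr2k, a share of 44 near that of all genes. Markers of other cells had fold changes below 0 in the same comparison, 10 of 10 for neutrophils, 7 of 7 for macrophages, 6 of 6 for fibroblasts and 6 of 6 for epithelium (7633 of 15875 genes). In that order 3, 6, 1 and 2 were lower at an unadjusted p under 0.05, and 3, 4, 1 and 2 by DESeq2. Of endothelial and of basal squamous markers, 4 of 5 were below 0 and 1 above 0, with 1 and 2 lower at an unadjusted p under 0.05 and 0 and 1 by DESeq2. None of all these markers was called by edgeR, and their part in the result was not tested. Both sides were at the floor for 27 of 44 members, for which no difference was detectable at this depth. Without TPMR1 replicate 2, 3 members were called lower in TPMR1, as were 4.3% of all genes.

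Other genes of squamous differentiation gave the complex its context. Of 24 listed genes of the chromosome 3 complex and the cornified envelope that are not members, 22 were tested. Of these, 17 were higher in TPM and 15 in TPK (7.44 and 10.3% of all genes), with 0 lower in either. DESeq2 called 20 and 19 higher (11.6 and 14.6% of genes), and 0 were lower by it or at an unadjusted p under 0.05. Between TPK and TPM 0 were called by edgeR, 3 were lower at an unadjusted p under 0.05 (3.8% of all genes), and DESeq2 called 1 lower (0.966%). Transglutaminase 1 (Tgm1), which cross-links the envelope, was at 226 and 42.7 CPM in TPM, 305 and 194 in TPK, 15.0 and 4.56 in TPMCa and 0.620 and 4.11 in TPMR1 (log2 fold change 4.82, SE 0.92, adjusted p = 0.0245 in TPM, and 5.71, SE 0.95, adjusted p = 0.0124 in TPK). Cornifelin (Cnfn) was uneven between the replicates of both squamous models, at 612 and 24.3 CPM in TPM and 521 and 18.7 CPM in TPK. It was at most 0.222 CPM elsewhere. Of 16 listed transcription regulators known to act on the complex, 6 were higher in TPM (Trp63, Grhl1, Grhl3, Ovol1, Elf3 and Ahr) and 8 in TPK, the same 6 with Zfp750 and Nfe2l2 (7.44 and 10.3% of all genes). None was lower by edgeR. At an unadjusted p under 0.05, 1 and 2 were lower (9.28 and 13.3% of all genes). DESeq2 called 1 and 2 lower (6.84 and 12%), Arnt in TPM and Arnt and Satb1 in TPK. The AP-1 genes of the list, Junb, Fosl1 and Fosl2, were called in neither comparison by either tool. Junb was at 346 and 272 CPM in TPM, 741 and 352 in TPK, 1579 and 1255 in TPMCa and 45.6 and 968 in TPMR1. Fosl1 was at 2.05 and 1.83, 5.09 and 0.791, 16.5 and 3.45, and 0.271 and 3.67 CPM in that order. Fosl2 was at 315 and 280, 371 and 291, 480 and 199, and 385 and 339 CPM. Klf4, a regulator of terminal differentiation, was at 242 and 75.8 CPM in TPM, 484 and 197 CPM in TPMCa and 42.2 and 196 CPM in TPMR1, and did not pass the test of TPM against both other models averaged (log2 fold change -0.34, SE 0.76, adjusted p = 0.819). Of the S100 genes outside the complex, 0 of 2 tested were called by edgeR in either comparison, 1 was higher and 1 lower at an unadjusted p under 0.05 in each, and DESeq2 called S100g higher in both and S100b lower in TPM.

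The AP-1 letters in a member's promoter were set beside the calls as a description. Of the 11 members with TGACTCA, all 11 were tested, and 9 were called higher in TPM and 8 in TPK (7.44 and 10.3% of all genes). Of the 42 members with a window but without it, 27 were tested, and 12 and 11 were called. All 20 Lce genes with a window are among these 42, and the filter kept only 9 of 21 Lce genes. A member high in 1 model alone could pass the filter, and a link between the letters and the calls was not tested. Since 7 of the 11 are Sprr2 copies, the members with the letters are not separate cases.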

How the data were processed

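RNA of 8 libraries, 2 from each of 4 models, was sequenced on poly(A)-selected material. The authors aligned trimmed reads to mm10 with STAR and deposited counts of reads per gene symbol, as whole numbers. The counter, its annotation and its use of strand are not given in the sources used here. A deposited table of counts divided by size factors was not used. Models were taken from the labels, and the columns headed TPMS were read as TPM. The engineered genes are named only in part.

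Counts were fitted with edgeR 4.0.16 in R 4.3.3 (TMM scaling, filterByExpr, one quasi-likelihood fit of all 8 libraries with a term for the model), which tested 15875 genes with a common dispersion of 0.269. Adjusted p-values are Benjamini-Hochberg values over all genes tested, with a threshold of 0.05, and SE is the standard error of a log2 fold change. A group with 3 counts or fewer in each library was set to 3 counts per library, and its fold is a bound. DESeq2 1.42.0 and other scalings, filters, sample sets and leaving out each library were alternatives. The fit was checked on simulated counts with known changes. Gene models came from GENCODE vM21 and promoters from RefSeq. Shared sequence was counted over 100-base windows of transcripts, and promoters were aligned globally with Biopython 1.88.

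Named members were the 8 with the highest mean CPM in each group that reached 1 CPM in a library, and any called between TPK and TPM or TPMR1 and TPMCa, 32 in all. Others are named to complete a count or because their values stood out. The members and all lists were chosen with earlier results of these data known.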

Additional observations from a re-analysis of the deposited data

How the results depend on the processing

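The count of members called higher was 24 in TPM and 23 in TPK against the mean of TPMCa and TPMR1 (7.44 and 10.3% of all genes). It was 0 in the 2 other comparisons (0% of all genes). With the Wald test of DESeq2 it was 39 in TPM (11.6% of genes) and 1 in TPK against TPM (0.601%). The same test called 1 lower in TPMR1 against TPMCa (2.94%). With only the models compared it was 15 in TPM (5.02% of all genes). The threshold of the study's methods was a log2 fold change beyond 1 with p under 0.05, unadjusted. By it 39 were higher in TPM and 37 in TPK (13.5 and 15.5% of all genes). In TPK against TPM 7 passed, 1 higher and 6 lower (2.32 and 2.95% of all genes). In TPMR1 against TPMCa 1 was lower (5.88%). Leaving out 1 library at a time gave 11 to 22 in TPM, 11 to 25 in TPK, 0 for TPK against TPM and 0 to 3, all lower, for TPMR1 against TPMCa. Without replicate 1 of both TPM and TPK, an alternative chosen after seeing the data, they were 2 and 8. The cause was not tested, but fewer libraries were fitted where libraries were left out.

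Replicate numbers did not pair the libraries: the correlation of same-numbered libraries' deviations from their model means lay between -0.08 and 0.02 over 15875 genes. With a replicate block the counts were 21 in TPM and 25 in TPK (5.8 and 8.27% of all genes called higher). They were 0 in the other comparisons (0% of all genes).

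Other scalings and filters kept each count within 1.5 times its value. Scaling by library size alone moved the median of all genes to -0.13 in TPK against the mean and -0.11 in TPK against TPM. Of 576 values of named members that were called, 449 stayed past the threshold under the alternatives, 127 did not and 0 reversed. Depth limits the 16 members that were not tested and every fold against a group at 3 counts or fewer.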
